A study of Mus musculus with 24 samples.

Results

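Oxidative phosphorylation genes were followed across 3 sorted cell populations of the mouse trachea. They were taken by symbol as the protein-coding genes that start with Nduf, Sdh followed by a to d, Uqcr, Cox4i to Cox8, Atp5, mt-Nd, mt-Co, mt-Cyt or mt-Atp. The rule named 107 genes, of which 103 had at least 10 estimated read counts summed over the 24 libraries, out of 30866 genes with a count. Of the 103 genes, 90 lie in the nuclear genome and 13 are all the protein-coding genes of the mitochondrial genome. Cox8c and Cox7b2 with 1 count each, Ndufa4l2 with 3 and Cox8b with 6 fell below the minimum. Just above it were Cox6a2 with 12 counts, Cox4i2 with 29, an extra gene identifier that shares the symbol Atp5o with 31, Cox7a1 with 118, Ndufaf6 with 171 and Cox6b2 with 198. These 6 nuclear genes did not pass the filter on low counts, so 84 nuclear and 13 mitochondrially encoded genes were tested.

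The libraries were made by low-input RNA sequencing of 1000 sorted cells each, lysed directly and amplified by the SmartSeq2 method, from tracheas of naive wild-type female C57BL/6 mice; ages were not given in the sources used here. The groups were epithelial cells labelled BCAM HI (here BCAM high), BCAM LO (BCAM low) and differentiated, with 8 libraries each, 5 labelled batch 1 and 3 labelled batch 2. BCAM is a laminin-binding surface protein, and the title calls the cells basal subsets. Nothing in the labels says whether libraries came from separate animals, so the p-values measure the spread between these libraries.

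Oxidative phosphorylation passes electrons from NADH and succinate along complexes I to IV of the inner mitochondrial membrane to oxygen, and the proton gradient this builds drives ATP synthase, complex V. Complexes I, III, IV and V are built from subunits of both genomes, and complex II from nuclear subunits only. Nuclear genes for these subunits are transcribed singly, whereas the mitochondrial genome is transcribed as long precursors that are cut into messenger RNAs. In the trachea, basal cells are the stem cells that give rise to secretory and ciliated cells.

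Libraries held between 1824620 and 4440070 estimated counts. Summed markers of basal cells lay at 7037 to 11683 CPM (counts scaled to a common library size) in the basal groups and at 387 to 2669 in the differentiated group. Bcam itself ranged from 324 to 739 CPM in BCAM high, from 224 to 457 in BCAM low and from 109 to 907 in differentiated libraries, where the 3 batch 2 libraries lay at 458 to 907. Markers of thyroid cells, summed over 10 of 10 genes with a count, lay at 13828 to 117006 CPM in all 8 differentiated libraries, with 49558 to 117006 in batch 2, against 3.1 to 1287 in the basal groups. Secretory markers of the differentiated group lay at 292507 to 426337 CPM in batch 1 and at 13570 to 92075 in batch 2. In BCAM high they lay at 26040.3 to 35184.5 CPM and in BCAM low at 34895.9 to 75698.1. The differentiated median in batch 2, 20535 CPM, was thus below every basal library. Immune cell markers lay at 1352 to 25240 CPM in differentiated libraries and at 62.3 to 2016 in the others. The members of that list did not move together: of 5 tested, 2 passed as higher and 2 as lower in BCAM high than in differentiated cells, 3 and 1 did so in BCAM low, and Tyrobp, C1qa and S100a8 were at 0 in the differentiated batch 2 libraries. Parathyroid, C-cell and neuroendocrine markers lay at 276 to 29361 CPM in differentiated libraries, 5.04 to 17.9 in BCAM high and 1.51 to 463 in BCAM low. Ciliated cell markers lay at 88.8 to 454 CPM in BCAM high and 648 to 2031 in differentiated libraries. In BCAM low they lay at 551 to 671 CPM in batch 1 and 767 to 1303 in batch 2. Summed muscle markers reached at most 21.5 CPM and brown fat markers at most 39.1 CPM in any library. The part of these other cell types in the differences between groups or batches was not tested. In bulk samples, fewer cells of a type and less RNA per cell cannot be told apart.

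Promoter sequences are shown for some nuclear genes as examples, because nuclear subunit genes share no operon and each has a start of its own. The sequences come from RefSeq (GRCm38.p6), in which 72 of the 90 nuclear genes were matched by symbol, with 77 windows of 250 bases before to 50 bases after a start. The 150 bases that end just before the start are printed, 5′ to 3′ on the strand of the gene, with capitals for a searched motif. Ndufa8, Ndufa11 and Uqcr11 were lower in both basal groups than in differentiated cells and hold a motif. Ndufb8 was among the most lowered and holds none, and Cox7a2l and Uqcrc1 were the genes that were higher in the basal groups. The printed genes do not reflect how often lowered genes hold a motif. Ndufa4, Ndufa13, Ndufc2 and Cox7a2 were also called lower, hold none and are not printed, and Ndufa8 and Ndufa11 are not described further.
Ndufa8, complex I, chr2:36049339-36049488, minus strand: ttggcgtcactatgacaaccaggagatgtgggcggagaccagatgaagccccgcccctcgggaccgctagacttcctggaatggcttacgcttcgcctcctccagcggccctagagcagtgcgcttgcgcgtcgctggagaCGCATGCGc
Ndufa11, complex I, chr17:56717612-56717761, plus strand: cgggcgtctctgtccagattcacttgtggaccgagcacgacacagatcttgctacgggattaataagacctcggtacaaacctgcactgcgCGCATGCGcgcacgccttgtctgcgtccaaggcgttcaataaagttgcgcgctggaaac
Uqcr11, complex III, chr10:80406822-80406971, minus strand: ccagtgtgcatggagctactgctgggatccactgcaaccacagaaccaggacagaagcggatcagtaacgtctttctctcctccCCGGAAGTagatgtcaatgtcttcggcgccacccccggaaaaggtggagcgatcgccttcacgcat
Ndufb8, complex I, chr19:44555443-44555592, minus strand: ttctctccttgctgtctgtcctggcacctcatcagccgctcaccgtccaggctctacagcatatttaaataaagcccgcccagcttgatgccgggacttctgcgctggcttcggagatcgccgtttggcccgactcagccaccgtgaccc
Cox7a2l, complex IV family, chr17:83514334-83514483, minus strand: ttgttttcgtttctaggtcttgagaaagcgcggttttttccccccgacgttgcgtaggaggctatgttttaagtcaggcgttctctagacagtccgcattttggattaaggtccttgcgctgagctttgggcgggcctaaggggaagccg
Uqcrc1, complex III, chr9:108936498-108936647, plus strand: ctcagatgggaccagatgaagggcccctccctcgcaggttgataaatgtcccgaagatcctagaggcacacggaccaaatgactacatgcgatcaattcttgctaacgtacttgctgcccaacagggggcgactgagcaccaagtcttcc

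The letters CGCATGCG, the core of the site of NRF1, a transcription factor known for acting on respiratory genes, occurred in 11 of the 77 windows (14.3%) and in 615 of 32851 windows of all genes (1.87%). The letters AAGATGGCG, a YY1 site, occurred in 8 of the 77 windows (10.4%) and in 1.40% of all windows. The letters CCGGAAGT, a site of ETS factors, occurred in 5 windows (6.49%) and in 3.89% of all windows. Both strands were searched, and none of the motifs contains another. Among the 42 windows of genes that were called lower in BCAM high than in differentiated cells, 5 held the NRF1 letters (11.9%), against 6 of the 35 other windows (17.1%). For the YY1 letters these shares were 11.9% and 8.57%, and for the ETS letters 4.76% and 8.57%. In Uqcrc1 the NRF1 letters lie after the start, outside the printed bases, and in Uqcr11 a match that begins 5 bases before the start runs past the printed end and is not in capitals. A match of letters is a description and shows no binding.

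The mitochondrially encoded genes took between 1.45% and 6.62% of a library's counts, and the nuclear genes between 0.889% and 1.38%. In BCAM high batch 1 the mitochondrial shares were 4.25%, 5.67%, 5.01%, 4.20% and 4.16%, and in batch 2 they were 1.95%, 3.29% and 3.70%. BCAM low libraries gave 5.42%, 6.62%, 6.44%, 4.71% and 5.45% in batch 1 and 1.73%, 3.01% and 3.80% in batch 2. Differentiated libraries gave 3.20%, 3.74%, 3.98%, 3.50% and 3.71% in batch 1 and 1.45%, 2.64% and 2.89% in batch 2. Within each group, every batch 2 library lay below every batch 1 library, and the library numbered 6 was the lowest. A 95% Wilson interval around such a share was at most 0.028 percentage points wide on either side, and covers counting error only.

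The nuclear share did not separate the batches. It was 1.24% ± 0.107 (SD, n = 8) in BCAM high, 1.03% ± 0.115 (SD, n = 8) in BCAM low and 1.01% ± 0.112 (SD, n = 8) in differentiated libraries. After scaling by the trimmed mean of M values (TMM), the summed nuclear level had another order: 10548 ± 835 CPM in BCAM high, with 9911 ± 802 CPM for BCAM low, against 12651 ± 842 (SD, n = 8 each) in differentiated libraries. The 10 most abundant genes took 24.5% to 47.3% of the counts in differentiated libraries, 14.5% to 33.4% in BCAM low and 11.0% to 20.7% in BCAM high. Shares and scaled levels therefore rank the groups differently, and the fold changes below are on the TMM scale unless another is named.

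**Figure D1:**
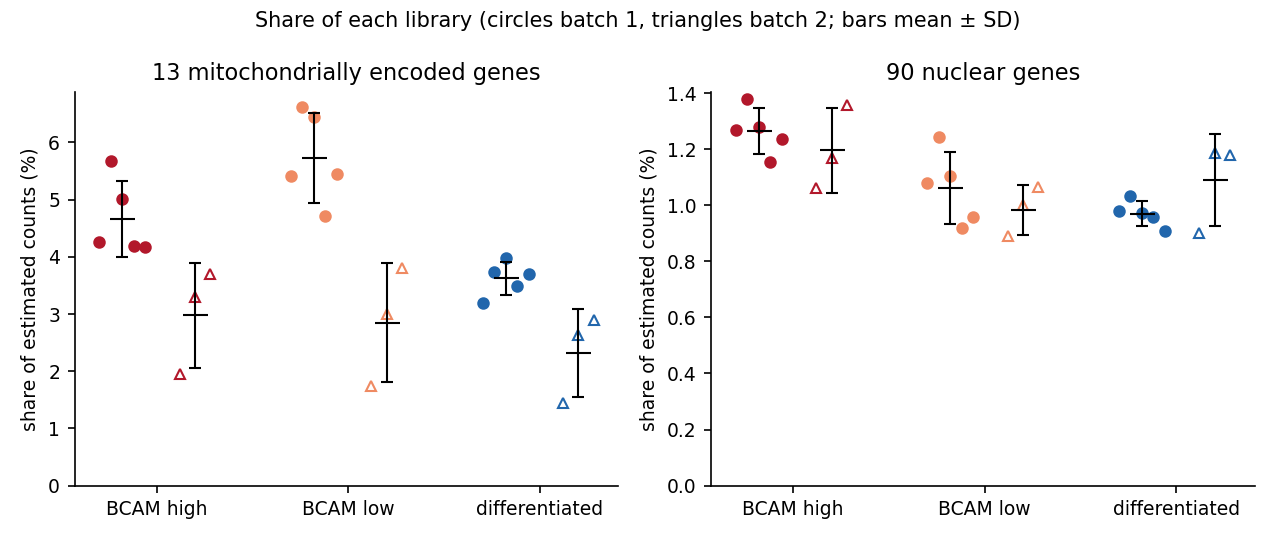
Share of estimated counts (%) from the 13 mitochondrially encoded genes (left) and the 90 nuclear genes (right), per library, with mean ± SD per group and batch. Mitochondrial shares of batch 2 lie at 1.45% to 3.80% and those of batch 1 at 3.20% to 6.62%, while nuclear shares of the batches overlap.

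Levels per transcript length, in TPM, the authors' length-scaled unit, placed the mitochondrially encoded genes far above the nuclear ones. The median over the 13 genes of their median TPM was 3949 in BCAM high and 4174 in BCAM low, against 2867 in differentiated libraries, with mt-Nd6, the gene on the other strand from the rest, lowest in each group (468, 517 and 317 TPM) and mt-Atp6, a subunit of the ATP synthase proton channel, highest (10615, 12352 and 7542 TPM). Among nuclear genes, complex IV subunits had the highest group medians, 426, 377 and 351 TPM over 12 genes. Cox4i1, the common form of subunit IV, led them with 1126 TPM in BCAM high and 811 in BCAM low, against 738 in differentiated libraries. Atp5b, the catalytic beta subunit of ATP synthase, led complex V with 897, 666 and 533 TPM. Factors that assemble complex I were lowest, with medians over 7 genes of 29.0, 15.4 and 18.2 TPM.

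Paralogues known for muscle and other tissues had few counts. Cox6a2, the muscle and heart form of subunit VIa, had 0 counts in the 16 basal libraries and 12 counts in 4 of 8 differentiated ones. With a floor of 3 counts set for each basal group, the ratio was 7.39 to BCAM high and 7.15 to BCAM low. These ratios leave out the counting error of the 12 counts, so they are not lower bounds. Cox6a2 met the count minimum through the differentiated group alone, so its counts cannot decide whether the groups differ. It did not pass the filter on low counts, and the difference was not tested. Cox7a1, the muscle form of subunit VIIa, had 20 counts in BCAM high and 59 in BCAM low, against 39 in differentiated libraries. Cox4i2, a form linked to low oxygen in lung, had 6, 20 and 3 counts, and the testis form Cox6b2 had 86, 64 and 48. Their common counterparts Cox4i1, Cox6a1, Cox6b1, Cox7a2 and Cox8a had mean levels between 120 and 495 CPM in every group.

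Nuclear genes were mostly lower in BCAM high than in differentiated cells on the TMM scale, and mostly higher on log2(TPM + 0.1) without centring. By the edgeR quasi-likelihood test, 45 of the 84 tested genes were called lower and 2 higher at an adjusted p under 0.05. Over all 12211 genes, 22.0% were called lower and 19.4% higher. The nuclear median log2 fold change was -0.34, against 0.02 over all genes. With limma on uncentred TPM, where the median of all genes moved to 0.75, the nuclear median was 0.40, with 42 genes higher and 3 lower. On that scale 6809 of all 12211 genes were called higher and 879 lower. With each library's TPM centred on its median, an alternative added after seeing the data, 31 were lower and 2 higher and the median was -0.26. Over all 12211 genes, 2013 were then called lower and 2186 higher, with a median of 0.09. Relative to the other genes of a library, the nuclear genes were thus lower on each of these scales.

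BCAM low against differentiated gave a similar count, and since both comparisons use the same differentiated libraries they are not independent. On the TMM scale 53 of 84 nuclear genes were called lower and 2 higher, with 17.1% of all genes called lower and 16.3% higher. The median was -0.38, against 0.02 over all genes, and on uncentred TPM it turned to 0.09 with 8 genes higher and 2 lower, while all genes had a median of 0.48. On that scale 4277 of all 12211 genes were called higher and 624 lower. Between BCAM high and BCAM low, 3 nuclear genes passed as higher and 1 as lower in BCAM high, against 2.43% and 4.59% of all genes. That median was 0.05.

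Batches analysed alone gave 35 of 84 nuclear genes lower in BCAM high than differentiated in batch 1 and 29 in batch 2, with 18.6% and 15.4% of all genes called lower. For BCAM low the counts were 48 in batch 1 and 20 in batch 2, with 17.3% and 8.23% of all genes.

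**Figure D2:**
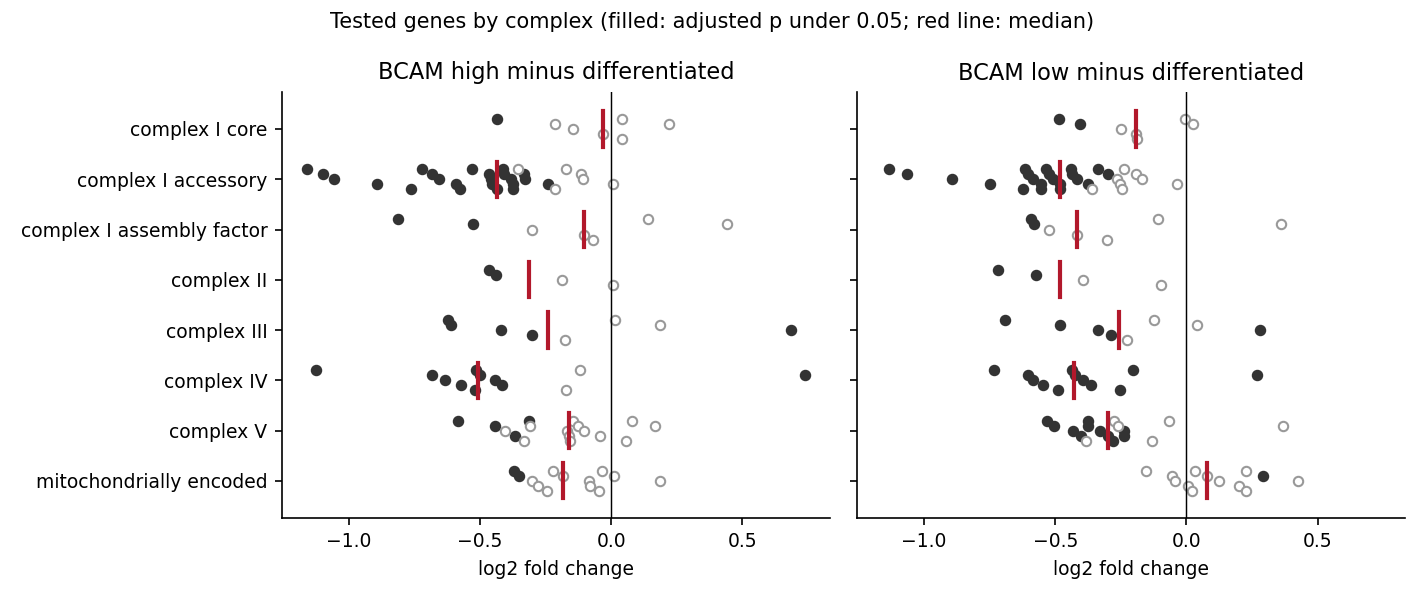
Log2 fold change (TMM scale) of each tested gene by complex, against differentiated libraries, which both panels share. Filled points passed an adjusted p of 0.05 and red lines are medians; complex I accessory subunits lie at medians of -0.44 and -0.48 and complex I core subunits at -0.03 and -0.19, directions that on uncentred TPM shift upward with all genes.

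Complex I takes electrons from NADH, and its nuclear subunits are given here by role. The 7 core subunits carry the flavin, the iron-sulphur clusters and the quinone site. Of these, Ndufv2 alone was called in BCAM high against differentiated (lower, -0.43), and the median of the 7 was -0.03. Ndufs1 and Ndufv1 were each at 0.04, neither past the threshold. In BCAM low, Ndufs3 (-0.49) and Ndufv2 (-0.41) were called lower. Among the 29 tested accessory subunits, which surround and stabilise the core, 23 were called lower in BCAM high and 21 in BCAM low, with medians of -0.44 and -0.48 and none called higher. The shares called lower were 79.3% and 72.4% for accessory and 14.3% and 28.6% for core subunits. Over all genes they were 22.0% and 17.1%. On uncentred TPM the accessory median in BCAM high turned to 0.28, with 9 called higher and 2 lower, and all 7 core subunits were called higher with a median of 0.66. Over all 12211 genes, 6809 were called higher and 879 lower on that scale, with a median of 0.75. On centred TPM, 15 accessory subunits and no core subunit were called lower in BCAM high. The difference between core and accessory subunits was not tested, nor was the part of transcript length in it.

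Ndufa1, a small membrane subunit encoded on the X chromosome, ranged from 71.1 CPM (lowest) through 96.1 (median) to 106 (highest) in BCAM high. It ranged from 72.7 through 89.9 to 118 CPM in BCAM low and from 174 through 201 to 279 CPM in differentiated libraries. All 16 basal libraries thus lay below all differentiated ones. The fitted change was -1.16 ± 0.10 (SE) in BCAM high (adjusted p = 1.86e-10, edgeR) and -1.13 ± 0.10 in BCAM low (adjusted p = 5.9e-10, edgeR).

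Ndufb8, an accessory subunit of the membrane arm, ranged from 88.4 through 96.2 to 121 CPM in BCAM high and from 84.6 through 104 to 121 CPM in BCAM low. Differentiated libraries lay at 162, 206, 163, 176 and 159 CPM in batch 1 and at 325, 350 and 218 CPM in batch 2, so the groups did not overlap and batch 2 was higher. The change was -1.10 ± 0.14 (SE) in BCAM high and -1.07 ± 0.14 in BCAM low (adjusted p = 2.01e-07 and 5.66e-07, edgeR). Within batch 1 alone it was -0.73 and -0.81, and within batch 2 alone -1.70 and -1.45.

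Ndufa13, also named GRIM-19, showed the same order of groups. It had 101 ± 9.4 CPM in BCAM high, with 101 ± 13 CPM for BCAM low, against 190 ± 47.4 (SD, n = 8 each) in differentiated libraries. Its change was -0.89 in each basal group, with no overlap of libraries. Within batch 1 it was -0.66 in BCAM high and within batch 2 it was -1.28.

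Ndufc2 (-1.06 in BCAM high, -0.75 in BCAM low), Ndufs5 (-0.76 and -0.51) and Ndufc1 (-0.72 and -0.62), further accessory subunits, were also called lower in both basal groups. Of the 7 assembly factors tested, 2 (28.6%) were called lower in each basal group, against 22.0% of all genes in BCAM high and 17.1% in BCAM low. Ndufaf3, which works on the quinone-side module, was among the 2 called factors in both groups, at -0.81 and -0.59. Ndufb4 shares sequence with the pseudogene Ndufb4c, which was listed with 3275 counts, so its values are uncertain.

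Complex II links the citric acid cycle to the chain, and 2 of its 4 subunit genes were called lower in each basal group on the TMM scale, with medians of -0.31 and -0.48 (on uncentred TPM 0.42 and -0.01). Over all genes, 22.0% were called lower in BCAM high and 17.1% in BCAM low. Sdha, the flavoprotein that oxidises succinate, had 273 ± 23.3 CPM in BCAM high, with 230 ± 40.7 CPM for BCAM low, against 378 ± 45.1 (SD, n = 8 each) in differentiated libraries, changes of -0.47 and -0.72. Sdhc, a membrane anchor, changed by -0.44 and -0.57. Sdhb, the iron-sulphur subunit, was at 0.00 and -0.10, neither past the threshold.

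Complex III passes electrons from quinol to cytochrome c. Of its 8 nuclear genes, 4 were called lower in each basal group on the TMM scale, with medians of -0.24 and -0.26 (on uncentred TPM 0.51 and 0.22), and Uqcrc1 was called higher in both. The share called lower was 50% in each, against 22.0% of all genes in BCAM high and 17.1% in BCAM low. Uqcr11, a small subunit, changed by -0.61 in BCAM high and -0.69 in BCAM low. Uqcrc1, the core 1 subunit, ranged from 459 through 490 to 618 CPM in BCAM high, from 286 through 400 to 458 in BCAM low and from 279 through 303 to 432 in differentiated libraries. BCAM high overlapped neither other group, while BCAM low and differentiated overlapped. It was higher by 0.69 ± 0.10 (SE) in BCAM high than in differentiated cells (adjusted p = 2.98e-06, edgeR) and by 0.40 ± 0.10 than in BCAM low (adjusted p = 0.013), where batch 2 alone gave 0.26, not past the threshold. The BCAM low change of 0.28 had an adjusted p of 0.034 by edgeR, and its call was lost under 6 of 13 alternatives, batch 1 alone (0.14) among them, and in 14 of 24 fits that left out a library.

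Complex IV reduces oxygen. Of its 12 tested nuclear genes, Ndufa4 included, 9 were called lower in BCAM high and 11 in BCAM low on the TMM scale, with medians of -0.51 and -0.43 (on uncentred TPM 0.21 and -0.05), and Cox7a2l was called higher in both. The shares called lower were 75% and 91.7%, against 22.0% and 17.1% of all genes. Ndufa4, once placed in complex I and now known as a complex IV subunit, ranged from 115 through 157 to 173 CPM in BCAM high, from 184 through 222 to 283 in BCAM low and from 315 through 335 to 362 in differentiated libraries. These 3 ranges did not overlap. The change against differentiated was -1.12 ± 0.09 (SE) in BCAM high (adjusted p = 3.83e-11, edgeR) and -0.59 ± 0.09 in BCAM low (adjusted p = 6.7e-06). Between the basal groups BCAM high was lower by -0.54 ± 0.09 (adjusted p = 2.95e-04, edgeR), a call that neither batch 2 alone (-0.47) nor uncentred TPM gave.

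Cox7a2l, known as SCAF1 for its part in supercomplexes of complexes III and IV, ran the other way. It ranged from 243 through 280 to 326 CPM in BCAM high, from 173 through 196 to 270 in BCAM low and from 138 through 162 to 243 in differentiated libraries. BCAM high lay above all differentiated libraries and overlapped BCAM low. The change was 0.74 ± 0.09 (SE) against differentiated (adjusted p = 2.16e-07, edgeR) and 0.47 ± 0.09 against BCAM low (adjusted p = 1.83e-03), and batch 2 alone gave 0.51 for the latter, not past the threshold. The BCAM low change of 0.27 against differentiated (adjusted p = 0.0269) lost its call under 5 of 13 alternatives and in 5 of 24 fits that left out a library. Its relative Cox7a2, the common form of subunit VIIa, was called lower in both basal groups, by -0.68 in BCAM high and -0.73 in BCAM low. Cox8a (-0.63 and -0.60) and Cox6a1 (-0.57 and -0.36) were called lower as well, and in BCAM high uncentred TPM turned both upward, to 0.13 and 0.19.

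Ndufa1, Ndufb8 and Ndufa4 stayed lower, and Cox7a2l and Uqcrc1 higher, in BCAM high than in differentiated cells under all 13 alternatives, uncentred TPM included, each time past the threshold. Leaving out each of the 24 libraries changed none of these 5 calls.

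**Figure D3:**
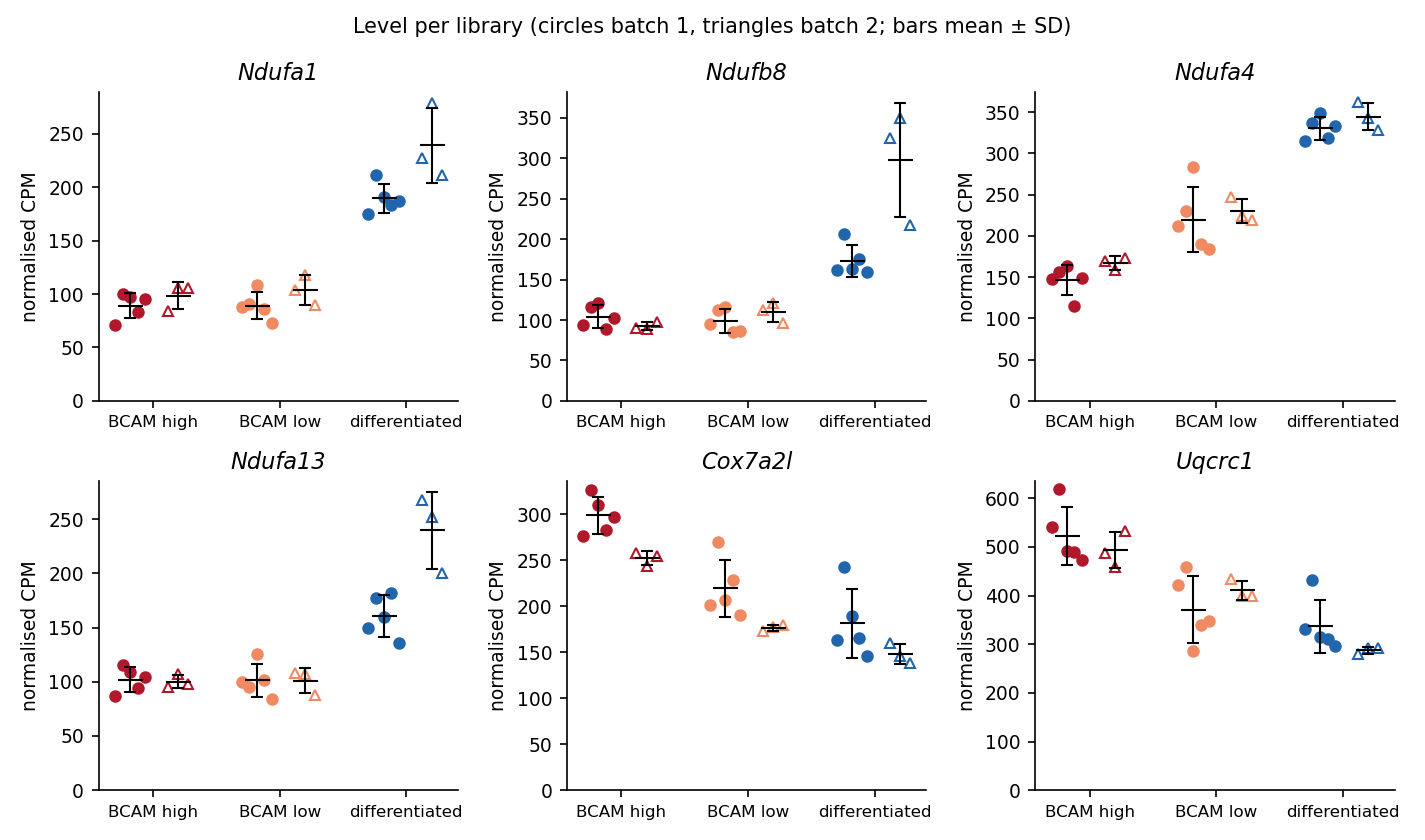
Level (TMM-scaled CPM) in each library of 6 nuclear genes, with mean ± SD per group and batch. Ndufa1, Ndufb8, Ndufa4 and Ndufa13 lie lower in both basal groups than in any differentiated library, and Cox7a2l and Uqcrc1 are highest in BCAM high; on uncentred TPM the changes of Ndufa13 did not pass the threshold.

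Complex V makes ATP. In BCAM high 4 of its 17 tested genes were called lower, and in BCAM low 11 of 17, on the TMM scale, with medians of -0.16 and -0.30 (on uncentred TPM 0.56 and 0.14). The BCAM high share of 23.5% lay near the 22.0% of all genes, while the BCAM low share was 64.7% against 17.1%. Atp5a1, the alpha subunit, had 779 ± 36.4 CPM in BCAM high, with 640 ± 93.2 CPM for BCAM low, against 752 ± 91.8 (SD, n = 8 each) in differentiated libraries. It was higher by 0.29 ± 0.09 (SE) in BCAM high than in BCAM low (adjusted p = 0.034, edgeR), but 11 of the 24 fits that left out a library did not call it. The 3 genes for the identical subunit c of the rotor were not called in BCAM high against differentiated, at -0.31 for Atp5g1, 0.17 for Atp5g2 and -0.33 for Atp5g3. Atp5g1 (-0.40) and Atp5g3 (-0.50) were called lower in BCAM low, at 0.08 and 0.01 on uncentred TPM. The call of Atp5g1 was lost under 8 of 13 alternatives and in 6 of 24 fits that left out a library. For Atp5g3 these were 3 of 13 and 0 of 24.

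Transcript length tracked the changes among the 84 nuclear genes. The length of a gene's transcripts, weighted by counts, had a median of 724 bases, against 2603 over all tested genes. Across genes, which are not independent replicates and share libraries, Spearman's rho between length and log2 fold change was 0.51 in BCAM high against differentiated, and 0.15 over all tested genes. In BCAM low it was 0.38, against 0.23 over all. The 15 genes of up to 500 bases had a median change of -0.51 in BCAM high, the 45 genes of up to 1000 bases -0.33 and the 24 longer genes -0.12. Over all tested genes those classes had medians of 0.01, -0.15 and 0.04. Lengths were examined after the changes were seen.

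**Figure D4:**
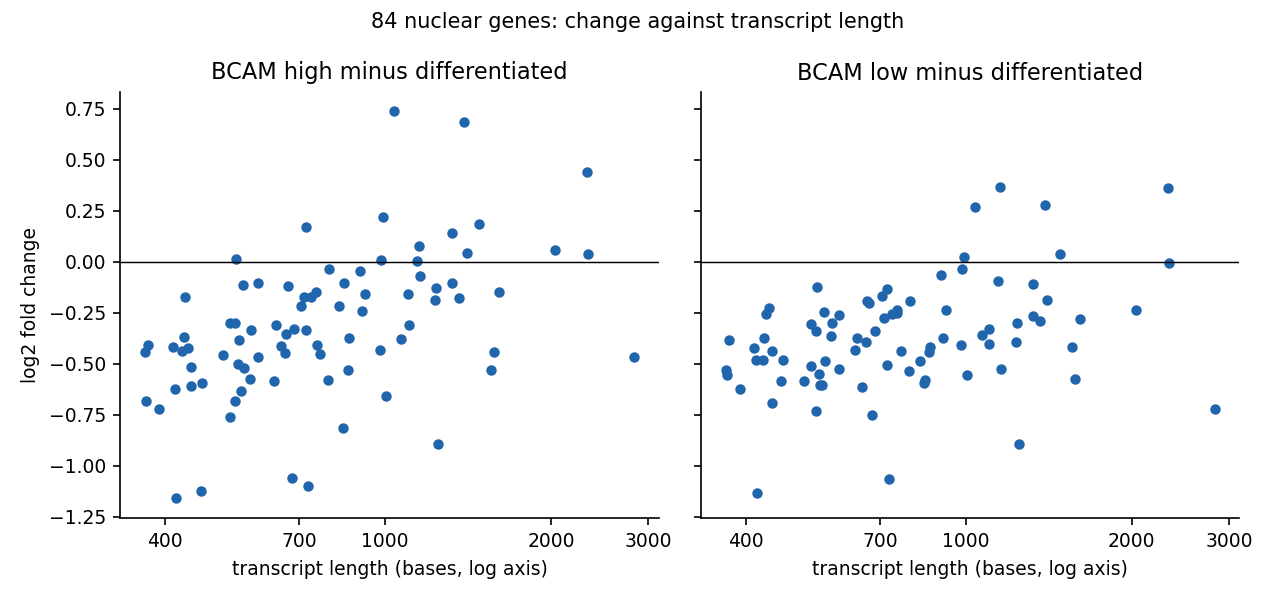
Log2 fold change (TMM scale) of 84 nuclear genes against count-weighted transcript length in bases on a log axis. Points rise to the right, with a Spearman rho of 0.51 for BCAM high and 0.38 for BCAM low; uncentred TPM moves the level of all points upward.

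Few mitochondrially encoded genes were called between the groups. Against differentiated cells, where 22.0% of all genes were called lower in BCAM high and 16.3% higher in BCAM low, 2 of 13 were called lower in BCAM high, mt-Nd1 (-0.37 ± 0.11 SE, adjusted p = 0.00861, edgeR) and mt-Nd4 (-0.35 ± 0.12, adjusted p = 0.0241), both complex I subunits. In BCAM low 1 was called higher, mt-Co1 (0.29 ± 0.10, adjusted p = 0.024), the catalytic subunit of complex IV. In BCAM high 11 of the 13 estimates were below 0 and in BCAM low 3 were, with medians of -0.19 and 0.08, and on uncentred TPM they were 0.59 and 0.55, with 10 and 8 genes called higher and none lower, mt-Nd1 (0.37) and mt-Nd4 (0.39) in BCAM high among those that turned upward. On uncentred TPM, 6809 of all 12211 genes were called higher in BCAM high and 4277 in BCAM low. Batch 2 alone called none of the 13 genes in either comparison. Leaving out BCAM high 4 or 6, or differentiated 2 or 3, left 1 called in BCAM high, and leaving out BCAM high 7 or 8 gave 4. Leaving out BCAM low 3 or differentiated 6 left 0 called in BCAM low, and leaving out BCAM low 6 or differentiated 8 gave 2.

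Between the basal groups all 13 estimates were below 0 and their median was -0.28. Of these, 2 passed: mt-Co1 (-0.38 ± 0.10 SE, adjusted p = 0.0177, edgeR) and mt-Co2 (-0.61 ± 0.17, adjusted p = 0.0308), both catalytic complex IV subunits. mt-Co1 ranged from 5541 through 6850 to 7742 CPM in BCAM high and from 6098 through 8626 to 11632 in BCAM low, ranges that overlapped. Same-numbered libraries of these groups deviated together (correlations of 0.12 to 0.29). Libraries of other numbers in the same batch reached 0.24. Around group and batch means, each BCAM high library correlated more with its own number than with other BCAM low libraries of its batch. The closest was number 3, at 0.032 against 0.030. The labels name no pairs, so the pairing remains an inference from these correlations, and the main fit did not use it. By number, mt-Co1, mt-Nd1, mt-Atp6 and mt-Nd4 were lower in BCAM high in 8 of 8 pairs. With the replicate number as a block, edgeR called 7 of 13 lower, against 4.26% of all genes: mt-Co1 (-0.38, adjusted p = 0.00307), mt-Nd1 (-0.33), mt-Nd4 (-0.37), mt-Co2 (-0.58), mt-Atp6 (-0.49), mt-Nd6 (-0.37) and mt-Atp8 (-0.28). Batch 1 alone called 5 genes lower, against 3.78% of all genes. Batch 2 alone, where 3.09% of all genes were called lower, and uncentred TPM called none. Leaving out BCAM high 1, 4 or 5, or BCAM low 3 or 8, left 1 called, and leaving out BCAM high 8 gave 4.

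The mitochondrial genes divided by batch. All 13 estimates were lower in batch 2 than in batch 1 in each of the 3 groups, with medians of -0.74 in BCAM high and -0.95 in BCAM low, against -1.02 in differentiated cells, against -0.02, -0.02 and 0.04 over all genes. By the edgeR test 4, 9 and 9 of the 13 were called lower and none higher. Over all genes, 3.11%, 4.66% and 10.2% were called lower and 4.93%, 6.48% and 9.98% higher. No label says what the batch number stands for.

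mt-Nd2, a membrane subunit of complex I, was called in every group. In BCAM high it had 812, 1106, 1026, 731 and 926 CPM in batch 1 and 322, 509 and 515 in batch 2. In BCAM low it had 1097, 1224, 1484, 1140 and 1114 CPM in batch 1 and 305, 388 and 410 in batch 2. Differentiated libraries had 1118, 1509, 1575, 1228 and 1511 CPM in batch 1 and 349, 409 and 399 in batch 2. The batches overlapped in no group, and the changes were -1.04, -1.72 and -1.85 (SE 0.17 in each, adjusted p = 1.54e-04, 4.34e-08 and 1.23e-08, edgeR).

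mt-Co1 moved least, by -0.01, -0.24 and -0.34, and passed in no group. mt-Atp6 was called lower in all 3 groups, by -1.21, -1.15 and -1.02, and so were mt-Nd1 and mt-Nd4. mt-Cytb, the complex III subunit, was called in BCAM low (-1.48) and differentiated cells (-1.49). The pairs mt-Atp8 and mt-Atp6, and mt-Nd4l and mt-Nd4, overlap on the genome, and how reads were divided between them is not known. Without the 3 libraries numbered 6, chosen after seeing the data, 1, 9 and 8 genes were called lower. Leaving out only number 6 of the group at issue gave 1 in BCAM high and 4 in BCAM low, against 5 in differentiated cells.

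**Figure D5:**
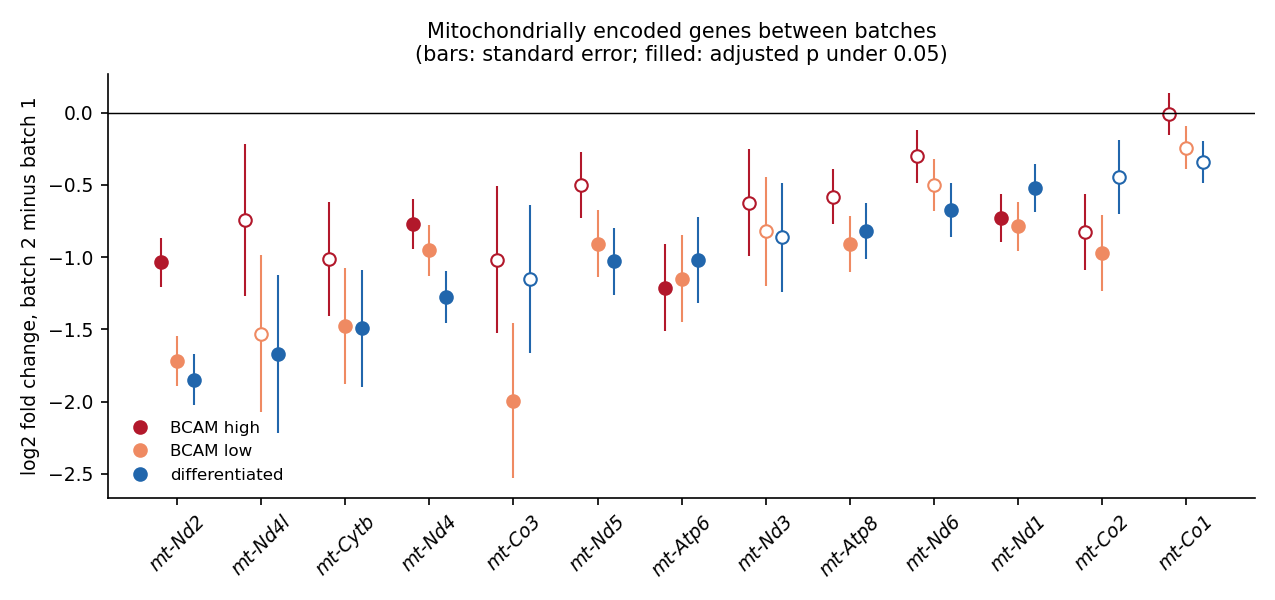
Log2 fold change between batches of the 13 mitochondrially encoded genes in each group, with standard errors. All 39 estimates lie below 0; mt-Nd2 is called in every group and mt-Co1 in none.

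The nuclear calls between batches were 0, 1 and 7 of 84, set against the shares of all genes given above (4.93% higher and 3.11% lower in BCAM high, 6.48% and 4.66% in BCAM low, 9.98% and 10.2% in differentiated cells). In BCAM high, where edgeR called none, 9 of 84 had an unadjusted p under 0.05, against 2671 of all 12211 genes, and DESeq2 called 1. In BCAM low Atp5f1, a peripheral stalk subunit, was called higher in batch 2 (0.43). In differentiated cells 3 were called higher, Ndufb8 (0.78), Atp5g1 (0.58) and Ndufa13 (0.58), and 4 lower, Ndufb7 (-0.60), Uqcrh (-0.56), Sdhb (-0.53) and Uqcr10 (-0.50), while uncentred TPM called 2 higher and none lower. Leaving out differentiated 2, 6 or 7 left 4 called there, leaving out BCAM low 6 or 7 left 0 in BCAM low, and leaving out BCAM high 8 gave 3 lower in BCAM high. Thyroid markers were higher and secretory markers lower in the same batch 2 differentiated libraries, and their part was not tested.

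Whether a group difference itself changed with batch was tested as an interaction. For BCAM high against BCAM low no member was called by edgeR or DESeq2, and 1.06% of all genes were called by edgeR. By edgeR, 5 members had an unadjusted p under 0.05, against 1432 of all 12211 genes. For BCAM high against differentiated, Ndufb8 (-0.95), Uqcrh (0.60) and mt-Nd2 (0.81) were called, with 8.69% of all genes. For BCAM low against differentiated, Uqcrh (0.55), Sdhb (0.72) and Atp5f1 (0.50) were called, with 11.4% of all genes. Leaving out BCAM high 7 or 8 or differentiated 6 left 1 for BCAM high, and for BCAM low leaving out BCAM low 7 or differentiated 6 left 1, differentiated 7 left 0 and differentiated 8 gave 7. Uqcrh, the hinge subunit of complex III, had 243 ± 14.8 CPM (SD, n = 5) in batch 1 and 165 ± 24.6 (SD, n = 3) in batch 2 of the differentiated group.

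Other genes of the pathway were read from lists of known members, and each count stands against 19.4% of all genes called higher and 22.0% lower in BCAM high than in differentiated cells, and 16.3% and 17.1% in BCAM low. By count, the lists of mitochondrial DNA upkeep, assembly factors and mitochondrial ribosomal proteins held 2 of 18, 5 of 42 and 14 of 78 lowered genes in BCAM high, shares below that of all genes. Nuclear regulators, at 1 of 12, also lay below it. Carriers, at 3 of 13, lay near it, and the citric acid cycle (6 of 17) and glycolysis (7 of 19) lay above it. In BCAM low the mitochondrial ribosomal proteins, at 17 of 78, lay above the 17.1% of all genes. Among 18 genes for transcription, translation and upkeep of mitochondrial DNA, 3 passed as higher and 2 as lower in BCAM high than in differentiated cells, and 1 and 2 in BCAM low (medians 0.16 and 0.06). Slirp, which with Lrpprc protects mitochondrial messenger RNAs, was lower in both (-0.54 and -0.68), while Lrpprc was higher in BCAM high (0.60). Of 12 nuclear regulators, 6 passed as higher and 1 as lower in BCAM high, and 4 and 1 in BCAM low (medians 0.47 and 0.45). Ppara (1.29), Myc (1.25) and Ppard (1.05) were higher in BCAM high, and Ppara (1.14) and Gabpb2 (0.87) in BCAM low. Ppargc1a, the coactivator of mitochondrial biogenesis, had 13.2 ± 2.7 CPM in BCAM low and 29.5 ± 11.3 (SD, n = 8 each) in differentiated libraries, a change of -1.11.

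Of 42 assembly factors outside the symbol rule, none was called higher and 5 lower in BCAM high, and 2 higher and 7 lower in BCAM low (medians -0.09 and -0.20). Sdhaf1, which delivers iron-sulphur clusters to complex II, had 3.3 ± 2.1 CPM in BCAM high, with 14.8 ± 5.1 CPM for BCAM low, against 16.4 ± 3.3 (SD, n = 8 each) in differentiated libraries. It was lower in BCAM high by -2.41 ± 0.29 (SE) against differentiated and by -2.27 ± 0.29 against BCAM low (adjusted p = 1.03e-07 and 8.7e-06, edgeR).

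Of 13 electron and nucleotide carriers, 2 passed as higher and 3 as lower in BCAM high, and 1 and 5 in BCAM low (medians -0.16 and -0.29). Ucp2, an inner membrane carrier, was higher in BCAM high than in differentiated (0.51) and BCAM low cells (0.32), and the ADP/ATP carrier Slc25a4 was lower in BCAM high (-0.41) and BCAM low (-0.67) than in differentiated cells. Of 17 genes for pyruvate dehydrogenase and the citric acid cycle, 1 was called higher and 6 lower in BCAM high, and none higher and 7 lower in BCAM low (medians -0.13 and -0.23). Suclg1, of succinyl-CoA ligase, changed by -0.69 and -0.81. Of 19 glycolysis genes, 3 were higher and 7 lower in BCAM high, and 2 and 7 in BCAM low (medians -0.22 and -0.38). Aldoc changed by -2.82 and -2.20, and Ldhb by -2.69 and -2.85. Of 78 mitochondrial ribosomal protein genes, a list added after seeing the data, 3 were higher and 14 lower in BCAM high, and 2 and 17 in BCAM low (medians -0.11 and -0.20).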

How the data were processed

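Estimated counts and TPM, a length-scaled abundance, per transcript were deposited by the authors for each of 24 libraries, per the file headers. The submitters' processing notes name kallisto 46.1, Picard and the build GRCm39. Reads were paired, 38 bases each, per the labels' protocols. Here, estimated counts were summed per gene with GENCODE M21 (116374 of 117497 transcripts matched; 0.317% to 0.594% of a library's counts did not), rounded, filtered by expression (12211 genes kept) and tested with edgeR 4.0.16 (quasi-likelihood, TMM factors, group and batch as terms; a mean for each group and batch for contrasts between batches) with Benjamini-Hochberg adjustment over all genes kept, called under 0.05. Alternatives used DESeq2 1.42.0 and limma 3.58.1 on log2(TPM + 0.1), in R 4.3.3. Pairing was checked by correlating the deviations of same-numbered libraries from their group means. All 8 BCAM high and low pairs exceeded 0.1 (0.12 to 0.29). These numbers, from the data and not the labels, served as pairs in the alternative with a replicate block and not in the main fit. Libraries of other numbers in the same batch also exceeded 0.1, at up to 0.24. Among libraries of both batches, 5 of 8 correlated best with their own number. The batches contribute (0.032 to 0.17 around group and batch means). Around those means, other numbers of the same batch reached at most 0.047. Each BCAM high library then correlated best with its own number within its batch. The labels name no pairs, so the pairing remains an inference from these correlations. Pairs with differentiated libraries did not all exceed 0.1. The edgeR script was tested on simulated data. Promoter coordinates are of GRCm38.p6 and were not mixed with the authors' build.

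Genes named are all 13 mitochondrial genes, up to 8 nuclear genes per direction and comparison with the largest called change and a mean of at least 10 CPM, up to 4 per direction between batches, known paralogues, up to 3 called genes per list and those near the count minimum; genes given to complete a group were chosen with their values seen. Members and lists were chosen with earlier results of these data known. Totals ran from 1824620 to 4440070 counts, and the number of libraries limits precision more than counting does.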

Additional observations from a re-analysis of the deposited data

Results flagged for a closer look

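Values are listed where a library lay far from the other 7 of its group, by Dixon's test at the 95% level. Chance alone flags about 1 in 20 groups, and 9 of 123 were flagged. Uqcrc1 was at 432 CPM in differentiated 2 (others 279 to 331). Ndufa4 was at 115 CPM in BCAM high 4 (others 148 to 173). BCAM low 3 stood above its group in 4 genes: Cox7a2 at 154 CPM (others 101 to 126), Cox6a1 at 243 CPM (141 to 174), Cox6b1 at 225 CPM (125 to 169) and mt-Nd6 at 330 CPM (137 to 221). Ndufb7 was at 51.2 CPM in BCAM high 2 (33.2 to 41.7), and Cox8a at 266 CPM in BCAM high 8 (198 to 230). mt-Nd5 was at 1628 CPM in BCAM high 6 (2970 to 4008).

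For 5 genes a difference between groups itself differed between batches by the interaction test of edgeR, given as batch 2 minus batch 1 in log2 units. For BCAM high minus differentiated these were Ndufb8 (-0.95, adjusted p = 0.00353), Uqcrh (0.60, adjusted p = 0.0344) and mt-Nd2 (0.81, adjusted p = 0.0216). For BCAM low minus differentiated these were Uqcrh (0.55, adjusted p = 0.0483), Sdhb (0.72, adjusted p = 0.011) and Atp5f1 (0.50, adjusted p = 0.0334).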

How the results depend on the processing

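Called counts are for nuclear or mitochondrially encoded genes, with the value of edgeR in the report first. Against differentiated, uncentred TPM called 6809 of all 12211 genes higher and 879 lower in BCAM high, and 4277 and 624 in BCAM low. Between the basal groups, 4 nuclear calls became 7 on uncentred TPM and 0 in batch 2 alone, and the median of 0.05 became 0.32 on uncentred TPM. The 2 mitochondrial calls became 1 with no filter or on centred TPM, 0 on uncentred TPM, without a batch term or in batch 2 alone, 5 in batch 1 alone, with only both groups fitted or without the differentiated batch 2 libraries, and 7 with a replicate block. For BCAM high against differentiated, 47 nuclear calls became 31 in batch 2 alone and, mostly in the other direction, 45 on uncentred TPM, where the median was 0.40. The 2 mitochondrial calls became 1 with no filter, 10 on uncentred TPM (median 0.59), 6 in batch 1 alone, 4 with the replicate block, and 0 without a batch term, in batch 2 alone or on centred TPM. For BCAM low against differentiated, 55 nuclear calls became 21 in batch 2 alone and 10 on uncentred TPM (median 0.094). The 1 mitochondrial call became 8 on uncentred TPM (median 0.55), 3 with the replicate block, 2 in batch 1 alone, without the libraries numbered 6 or on centred TPM, and 0 without a batch term, in batch 2 alone or with only both groups fitted.

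Between batches, 0 nuclear calls in BCAM high became 1 with DESeq2 or no filter, and 4 mitochondrial calls became 1 on uncentred TPM or without the libraries numbered 6. In BCAM low the 1 nuclear call became 0 with no filter, on either TPM scale or without the libraries numbered 6. In differentiated cells 7 nuclear calls became 2 on uncentred TPM, 4 without the libraries numbered 6 and 12 on centred TPM, and 9 mitochondrial calls became 4 on uncentred TPM. The 3 interactions of BCAM high with differentiated became 0 on uncentred and 1 on centred TPM, and the 3 of BCAM low became 0 with no filter or without the libraries numbered 6 and 1 on uncentred TPM. The cause of these shifts was not tested. The alternatives without the libraries numbered 6, without the differentiated batch 2 libraries and on centred TPM were added after seeing the data.

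Among the named genes that the main fit called, single genes turned over on uncentred TPM only. In BCAM high these were Cox6a1 (0.19), Cox6b1 (0.29), Cox8a (0.13), mt-Nd1 (0.37) and mt-Nd4 (0.39), and in BCAM low Cox4i1 (0.19), Cox6a1 (0.11), Atp5g1 (0.078) and Atp5g3 (0.0071). Genes that were not named turned over as well. Of 29 accessory subunits of complex I, 23 were called lower in BCAM high by the main fit, and 9 were called higher on uncentred TPM. Of the other planned values for single genes, 461 kept their call and 80 lost it.

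Leaving out each library in turn gave 3 to 5, 42 to 49 and 47 to 59 nuclear calls for BCAM high against BCAM low, BCAM high against differentiated and BCAM low against differentiated, with medians of 0.02 to 0.10, -0.41 to -0.31 and -0.44 to -0.34. Mitochondrial calls were 1 to 4, 1 to 4 and 0 to 2, with medians of -0.36 to -0.23, -0.28 to -0.11 and -0.02 to 0.14. Between batches there were 0 to 3, 0 to 1 and 4 to 8 nuclear and 1 to 6, 4 to 10 and 5 to 9 mitochondrial calls in BCAM high, BCAM low and differentiated cells, and 0 to 0, 1 to 4 and 0 to 7 interactions.

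Same-numbered libraries correlated in their deviations from group means by 0.038 to 0.24 (BCAM high and differentiated) and 0.064 to 0.24 (BCAM low and differentiated), and 5 and 3 of 8 correlated best with their own number. Between the basal groups 5 of 8 did so, the same number as for BCAM high and differentiated. Around group and batch means these were 6 and 5 of 8, and 6 of 8 between the basal groups, ranked among libraries of both batches. Within a batch, another number exceeded the own number only at number 3 of BCAM low and differentiated (0.074 against 0.036). The main fit took the numbers as pairs in no comparison, and the replicate block was an alternative. Among the genes of the symbol rule, the block changed no call between the basal groups other than those of mitochondrially encoded genes. Over all genes, 297 higher and 560 lower calls became 344 and 520. With the replicate block, nuclear calls were 3 higher and 47 lower for BCAM high and 2 higher and 55 lower for BCAM low against differentiated.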
